A study of Mus musculus with 4 samples.

Results

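The 8 genes described here are the 3 C1q chain genes C1qa, C1qb and C1qc, with Lyz2, Ctss, Cd14, Fcgr2b and Serping1, in the renal cortex of diabetic and nondiabetic mice with and without ICAM-1. They were taken by gene symbol, C1qc and Lyz2 also under their older symbols C1qg and Lyzs, and each had 1 probe, so that they make up 8 of the 9900 genes and unnamed transcripts on the array. The genes were selected on measured values: their diabetes differences in an earlier analysis of these same 4 arrays. Those differences are therefore given as a description, with no test.

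All mice were males. They were either C57BL/6J mice with intact ICAM-1 alleles (ICAM-1+/+, WT) or mice of that background with no intact allele (ICAM-1-/-, KO, from the Jackson Laboratory). At 8 weeks of age they received streptozotocin, a toxin of the insulin-producing beta cells, at 200 mg/kg into the peritoneum (DM), or citrate buffer alone (ND). Only streptozotocin-treated mice whose blood glucose exceeded 16 mmol/L were kept. The kidneys were taken at 20 weeks of age, 12 weeks after the injection. The groups were thus DM-WT, ND-WT, DM-KO and ND-KO, of 5 mice each, and 1 array was hybridised per group. The labels do not say whether the RNA on an array came from 1 mouse or from a pool, so a difference between arrays carries no measure of the spread between mice. The knockout is carried by every cell of the mouse. The targeted gene's own transcript is not used here, and the genotypes are taken from the labels.

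C1q is the recognition part of the first complement component. Its A, B and C chains form trimers that join into a bouquet-shaped molecule, which binds antibody complexes and dying cells and starts the classical pathway through the proteases C1r and C1s. Tissue macrophages and dendritic cells are its main source, unlike most complement proteins, which come chiefly from the liver. Serping1 encodes the C1 inhibitor, which blocks C1r and C1s. Lysozyme (Lyz2) and cathepsin S (Ctss) are made by macrophages, and cathepsin S trims the invariant chain of MHC class II. CD14 presents bacterial lipopolysaccharide to Toll-like receptor 4, and Fcgr2b is the inhibitory receptor for IgG on B cells, macrophages and endothelium. Macrophages accumulate in the diabetic kidney, and ICAM-1 is the endothelial ligand that lets leukocytes leave the blood.

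C1qb, C1qc and C1qa lie next to each other on mouse chromosome 4. Lyz2 lies beside its paralogue Lyz1 on chromosome 10, and Ctss lies beside Ctsk, the cathepsin K gene, on chromosome 3. Fcgr2b is on chromosome 1 and Serping1 on chromosome 2. The 250 bases before the start of 5 of these genes are printed because 4 of them were higher, and Fcgr2b lower, on both diabetic arrays than on the nondiabetic array of the same genotype. They come from RefSeq on GRCm38.p6, on each gene's own strand, at chr4:136886201-136886450 (C1qb, minus), chr4:136892915-136893164 (C1qc, minus), chr10:117282273-117282522 (Lyz2, minus), chr3:95526536-95526785 (Ctss, plus) and chr1:170976072-170976321 (Fcgr2b, minus). C1qa and Serping1 have no entry in the table used. Cd14 was also higher on both diabetic arrays, but its window was not looked up. Capitals mark matches on either strand to GGAAGT and GAGGAA, purine-rich words of the kind bound by the myeloid factor PU.1, and to GAAA, any 2 bases and GAAA again, the repeat bound by interferon regulatory factors.
C1qb: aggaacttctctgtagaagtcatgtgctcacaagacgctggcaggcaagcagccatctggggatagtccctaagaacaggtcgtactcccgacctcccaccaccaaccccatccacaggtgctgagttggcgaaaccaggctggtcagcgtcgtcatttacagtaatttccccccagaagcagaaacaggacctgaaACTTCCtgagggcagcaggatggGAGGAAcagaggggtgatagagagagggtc
C1qc: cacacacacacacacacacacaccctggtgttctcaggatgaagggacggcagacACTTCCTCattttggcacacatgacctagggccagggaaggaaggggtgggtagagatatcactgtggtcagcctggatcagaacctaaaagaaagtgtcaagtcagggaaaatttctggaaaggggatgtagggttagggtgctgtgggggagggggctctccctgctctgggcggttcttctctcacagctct
Lyz2: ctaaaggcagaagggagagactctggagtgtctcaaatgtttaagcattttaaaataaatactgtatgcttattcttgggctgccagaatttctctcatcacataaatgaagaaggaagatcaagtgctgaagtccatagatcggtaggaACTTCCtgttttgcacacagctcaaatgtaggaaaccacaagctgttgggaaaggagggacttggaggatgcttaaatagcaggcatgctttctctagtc
Ctss: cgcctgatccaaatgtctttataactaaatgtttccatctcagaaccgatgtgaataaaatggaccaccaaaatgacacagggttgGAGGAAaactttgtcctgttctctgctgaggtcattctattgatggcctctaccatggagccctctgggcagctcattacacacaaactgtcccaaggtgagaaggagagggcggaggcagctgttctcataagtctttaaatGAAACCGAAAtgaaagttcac
Fcgr2b: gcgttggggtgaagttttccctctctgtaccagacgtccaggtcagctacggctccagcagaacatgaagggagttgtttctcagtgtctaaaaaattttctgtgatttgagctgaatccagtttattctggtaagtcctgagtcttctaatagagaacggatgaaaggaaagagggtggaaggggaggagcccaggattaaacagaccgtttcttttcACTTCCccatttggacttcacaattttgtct
GGAAGT was found in 4 of the 5 windows, against 19.7% of 32851 mouse promoter windows of the same length. GAGGAA was found in 3 of the 5, against 23.3% of all windows, and overlaps GGAAGT in C1qc. The GAAA repeat was found only in the Ctss window among the 5, ending 12 bases before the start, against 2.98% of all windows. The 3 words were picked after the windows had been seen, and a match describes the letters only.

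All 32 spots of the 8 genes were marked usable. Their background-subtracted intensity was 0.640 to 5.88 times the local background, and at least 1.39 times without Cd14, the dimmest of the 8. The 4 arrays had 62.8% to 66.2% usable gene spots. The DM-WT array stood apart in 2 respects: bacterial control RNAs gave 0.556 of their ND-WT signal on it, against 1.22 on DM-KO and 1.26 on ND-KO, and the spots of columns 44 to 48 in its upper block were dim. None of the 8 genes has a spot in those columns of the upper block, although Lyz1 does. Repeat spots of bacterial probes on 1 array gave an SD of 0.0839 for a log2 difference between 2 spots, by the median over bright and dim probes. That figure is used below as the spread of a spot, and it holds nothing of the spread between mice. Levels are log2 intensities after background correction with an added offset of 50 and quantile normalization, which makes folds of dim probes smaller.

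The C1q chain genes were higher on both diabetic arrays than on the nondiabetic array of the same genotype, and their difference was larger between the WT arrays for C1qa and C1qb. C1qa, which encodes the A chain, had a log2 level of 8.25 on DM-WT against 7.36 on ND-WT, and of 7.86 on DM-KO against 7.47 on ND-KO. This is a 1.86-fold difference in WT and a 1.31-fold difference in KO cortex. In the authors' deposited scaled intensities the same spots read 5.72 on DM-WT against 2.72 on ND-WT, and 4.13 on DM-KO against 2.97 on ND-KO. For C1qb, the B chain gene, the log2 levels were 8.45 on DM-WT against 7.62 on ND-WT, and 8.04 on DM-KO against 7.71 on ND-KO. The folds were 1.78 in WT and 1.26 in KO cortex. For C1qc, the C chain gene, the log2 levels were 7.51 on DM-WT against 6.95 on ND-WT, and 7.39 on DM-KO against 6.99 on ND-KO, or 1.48-fold and 1.33-fold. All 3 chains had the array order DM-WT, DM-KO, ND-KO, ND-WT by falling level. The nondiabetic neighbours in that order lay within 1 spot SD for C1qc, and 0.11 and 0.09 log2 apart for C1qa and C1qb. With each gene's own mean subtracted, the 3 chains spread over 0.216 log2 on DM-WT, 0.119 on ND-WT, 0.0970 on DM-KO and 0.0379 on ND-KO. In whole cortex, more cells that make a transcript and more transcript per cell cannot be told apart.

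**Figure D1:**
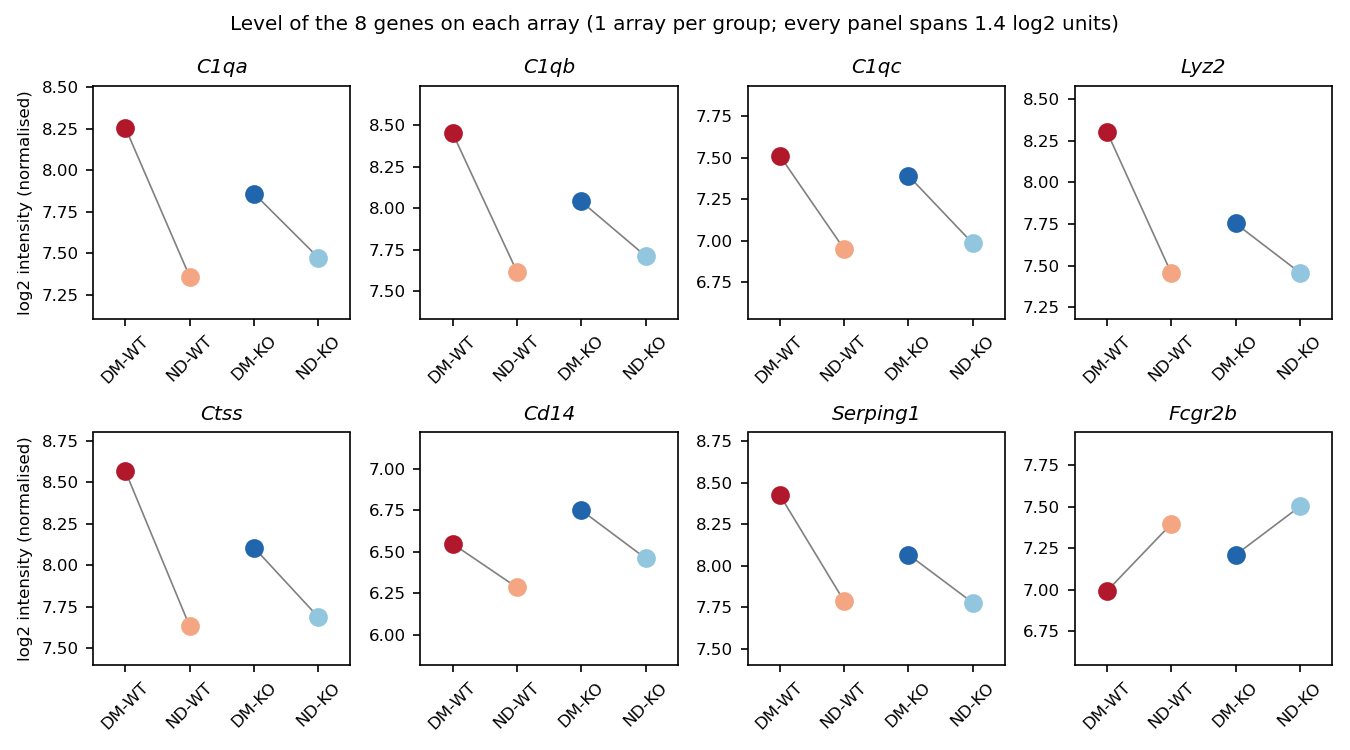
Log2 level (normalized intensity, vertical axis) of each of the 8 genes on the 4 arrays, 1 point per array, with each diabetic array left of the nondiabetic array of its genotype. C1qa reads 8.25 on DM-WT against 7.36 on ND-WT, while Fcgr2b reads 6.99 on DM-WT against 7.40 on ND-WT. Levels of different genes come from different probes and are not comparable.

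Serping1, the inhibitor gene, had log2 levels of 8.43 on DM-WT against 7.79 on ND-WT, and of 8.07 on DM-KO against 7.78 on ND-KO. The difference was thus 1.56-fold in WT and 1.22-fold in KO cortex, and the 2 nondiabetic arrays lay within 1 spot SD of each other. So the inhibitor of the first component was higher on the diabetic arrays together with its C1q chains.

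The macrophage enzymes showed the same array order at the diabetic end. Ctss had log2 levels of 8.57 on DM-WT against 7.63 on ND-WT, and of 8.11 on DM-KO against 7.69 on ND-KO. The difference was 1.91-fold between the WT arrays and 1.34-fold between the KO arrays. Lyz2 had log2 levels of 8.31 on DM-WT against 7.46 on ND-WT, and of 7.75 on DM-KO against 7.46 on ND-KO, or 1.80-fold and 1.23-fold. For both enzymes the nondiabetic arrays lay within 1 spot SD of each other. Lyz1, the paralogue, had log2 levels of 7.45 on DM-WT against 6.74 on ND-WT, and of 6.96 on DM-KO against 6.63 on ND-KO. Lyz1 and Lyz2 transcripts are near-identical and the probe sequences were not used here, so their signals may be shared, and the Lyz1 spot lies in the dim columns.

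The 2 receptors did not follow the array order of the C1q chains, although Cd14 was also higher on both diabetic arrays. Cd14 was dim, with log2 levels of 6.55 on DM-WT against 6.29 on ND-WT, and of 6.75 on DM-KO against 6.46 on ND-KO. The folds of 1.20 in WT and 1.22 in KO cortex were alike in size, and its highest array was DM-KO. In the authors' scaled intensities Cd14 read 1.02 on DM-WT against 0.656 on ND-WT, and 1.34 on DM-KO against 0.895 on ND-KO, which is 0.63 log2 apart in WT and 0.58 in KO cortex. On that scale C1qa was 1.07 apart in WT and 0.47 in KO cortex, C1qb 0.96 and 0.37, and C1qc 0.80 and 0.59. Fcgr2b was lower on both diabetic arrays, with log2 levels of 6.99 on DM-WT against 7.40 on ND-WT, and of 7.21 on DM-KO against 7.50 on ND-KO. Its log2 differences were -0.40 in WT and -0.29 in KO cortex, and -0.65 and -0.45 with the authors' scaling. Fcgr3, an activating IgG receptor gene of the same family, was 0.39 log2 higher on the DM-WT than on the ND-WT array and 0.08 higher on the DM-KO than on the ND-KO array.

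Set against all genes, 5 of the 8 (C1qa, C1qb, Lyz2, Ctss and Serping1) were at least 1.5-fold higher on the DM-WT than on the ND-WT array, where 1.75% of 6055 genes measured on both arrays were, and 0 of the 8 were as much lower, where 0.875% were. Because the genes were chosen for this contrast, nothing is read from that count. With the authors' own scaling all 8 differed by at least 1.5-fold, Fcgr2b downward, where 7.5% of 5388 genes did in either direction on that scale, against 2.63% of the 6055 genes here. The median log2 difference of the 8 was 0.74, against 0.00 over all genes, and it was 0.83 without Fcgr2b. Between the KO arrays, 0 of the 8 reached 1.5-fold, where 0.536% of 6339 genes were as much higher and 1.04% differed as much in either direction. The median there was 0.31, against -0.01 over all genes, and the central 95% of all genes lay between -0.30 and 0.34. C1qa at 0.39, C1qc at 0.41 and Ctss at 0.42 lay above that range, and Fcgr2b at -0.29 lay just inside its lower end.

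**Figure D2:**
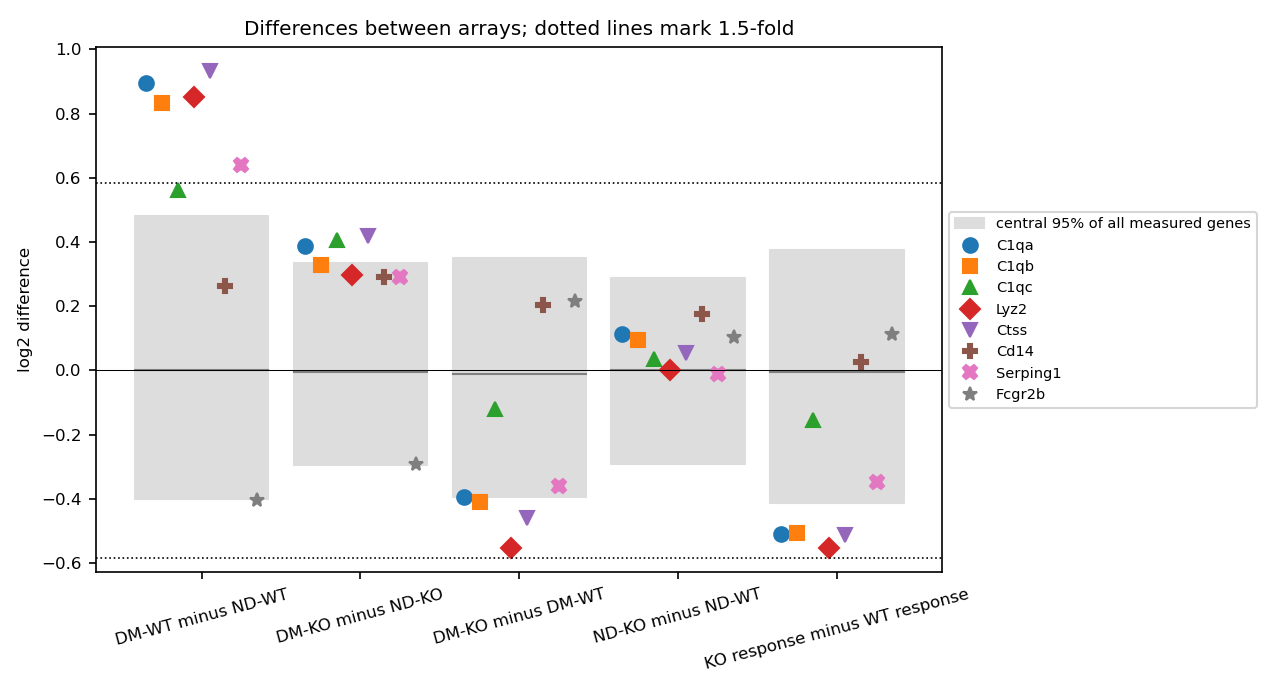
Log2 difference (vertical axis) of each of the 8 genes in the 4 pairwise comparisons of arrays, 1 point per gene and comparison. The last column holds the diabetes difference in KO minus that in WT cortex. Bands mark the central 95% of all measured genes. Ctss reads 0.93 for DM-WT minus ND-WT and 0.42 for DM-KO minus ND-KO, and Lyz2 reads -0.55 for DM-KO minus DM-WT and 0.00 for ND-KO minus ND-WT.

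The genotype comparison asks whether the genes differed between cortex without and with ICAM-1. In diabetic cortex, Lyz2 was 0.55 log2 lower on the DM-KO than on the DM-WT array, Ctss 0.46, C1qb 0.41, C1qa 0.40 and Serping1 0.36. C1qc was at -0.12, and at -0.05 with median scaling, whereas Cd14 was 0.20 and Fcgr2b 0.22 higher on DM-KO. The median of the 8 was -0.38, against -0.01 over all genes, whose central 95% lay between -0.39 and 0.35. In this comparison 0 of the 8 reached 1.5-fold in either direction, where 1.83% of 6111 genes did and 1.06% were as much lower. Under the authors' scaling Lyz2 did, at -0.67 log2, where 4.92% of 5430 genes did. In nondiabetic cortex the 8 genes lay between 0.01 log2 lower and 0.18 higher on the ND-KO than on the ND-WT array, with Cd14 the highest. With the authors' scaling Cd14 was 0.45 higher on ND-KO and 0.40 higher on DM-KO than on the WT array. The median was 0.07, against 0.00 over all genes, and 0 of the 8 reached 1.5-fold, where 0.623% of 6258 genes did.

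Across all 4 arrays, the genotype effect was tested in 1 limma fit with diabetes as a second additive term, which leaves 1 residual degree of freedom per gene. That residual is the gene's departure from an equal diabetes difference in both genotypes. The SEs, intervals and p-values below rest on it, moderated over all genes, and are no measure of the spread between mice. A gene whose diabetes difference varied with genotype therefore has a wider interval. By limma with Benjamini-Hochberg adjustment over 6512 genes, 0 of the 8 genes differed between genotypes at an adjusted p under 0.05, where 0.0461% of the genes did (0.0307% higher and 0.0154% lower in KO), and 1 of the 8, Cd14, had an unadjusted p under 0.05, as had 592 of all 6512 genes (9.09%). Cd14, the lipopolysaccharide co-receptor, was 0.19 ± 0.0614 log2 (SE) higher in KO cortex, with a 95% interval of 0.02 to 0.36 and a limma adjusted p of 0.516. With the authors' scaling the Cd14 value was 0.43. Lyz2 was -0.28 ± 0.149 log2 (SE) apart, KO minus WT, with an interval of -0.68 to 0.13 and a limma adjusted p of 0.619. The C1q chains were closer, at -0.14 for C1qa, -0.16 for C1qb and -0.04 for C1qc, KO minus WT, with limma adjusted p of 0.769, 0.734 and 0.866. Ctss was at -0.20, Serping1 at -0.18 and Fcgr2b at 0.16 log2, with limma adjusted p of 0.688, 0.629 and 0.565. These p-values do not show that the genotypes are alike, since the Lyz2 interval reaches -0.68. The same arrays entered this fit and the choice of the genes.

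The fit takes the diabetes effect as equal in both genotypes, and the values depart from that. The diabetes difference was 0.51 log2 smaller in KO than in WT cortex for C1qa, C1qb and Ctss, 0.55 for Lyz2, 0.35 for Serping1 and 0.15 for C1qc. For Cd14 it differed by 0.03, and for Fcgr2b by 0.11. Over the 5914 genes measured on all 4 arrays the central 95% of this quantity lay between -0.41 and 0.38. C1qa, C1qb, Ctss and Lyz2 lay below it, while 0 of the 8 reached 1.5-fold, where 1.59% of the genes did, 1.01% downward. No test of this difference is possible with 1 array per group. The DM-WT array enters it, and its high values are among those that chose the genes.

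Other macrophage genes were described from a list of 48, of which 36 are on the array and 15 were measured on all 4 arrays. The defining marker genes Adgre1 (F4/80) and Itgam (CD11b) were not well above background on any array, nor were Cybb, Ncf1, Slc11a1, Lcp1, Arg1 and Chil3, so macrophages are seen here through a limited set. Over all measured genes, 50.1% were higher on the DM-WT than on the ND-WT array, and 47.8% on the DM-KO than on the ND-KO array. These shares also apply to the lists below. Of 16 list genes measured on both WT arrays, 15 were higher on DM-WT, with a median log2 difference of 0.25. Those at 1.5-fold or more, where 1.75% of all genes were as much higher, were Lyz1, at 0.72, and Hmox1, the haem oxygenase gene, at 0.63. Between the KO arrays 11 of 16 were higher on DM-KO, with a median of 0.08. There 0 were at 1.5-fold, where 0.536% of all genes were as much higher. Tyrobp, the adaptor DAP12, was 0.31 log2 higher on the DM-WT than on the ND-WT array and 0.17 higher on the DM-KO than on the ND-KO array, and Aif1 (Iba1) 0.26 and 0.08. Spi1, the gene of PU.1, was 0.04 higher on the DM-WT than on the ND-WT array and 0.08 lower on the DM-KO than on the ND-KO array. For Tyrobp, Aif1 and Spi1 the diabetes differences were smaller than those of each C1q chain in the same genotype. Without Lyz1 the medians were 0.23 in WT and 0.08 in KO cortex. Between the diabetic arrays 15 of 19 were lower on the DM-KO than on the DM-WT array, the furthest being Hmox1 at -0.74. Of all genes, 46.8% were higher on DM-KO in that comparison. Between the nondiabetic arrays 12 of 15 list genes were higher on the ND-KO than on the ND-WT array, where 50.7% of all genes were. In the limma genotype fit 0 of 20 were called, where 0.0461% of all genes were. The list's summed signal, over 32 probes in the authors' scaled units, was 117 on DM-WT against 112 on ND-WT, and 99.7 on DM-KO against 111 on ND-KO. Cyba, an NADPH oxidase subunit gene that many cells express, made up most of it, with 77.7 on DM-WT against 84.3 on ND-WT, and 68.6 on DM-KO against 82.0 on ND-KO. Without Cyba the sum over 31 probes was 39.2 on DM-WT against 27.7 on ND-WT, and 31.1 on DM-KO against 29.5 on ND-KO. Only Cyba was left out, after its values were seen. Of the genes left in that sum, Hmox1 and Emp3 were the brightest on every array and so weigh most. Their log2 levels were 8.93 and 8.69 on DM-WT against 8.30 and 8.22 on ND-WT. Of the 32 probes, 22 were usable on DM-WT, 14 on ND-WT, 18 on DM-KO and 15 on ND-KO.

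**Figure D3:**
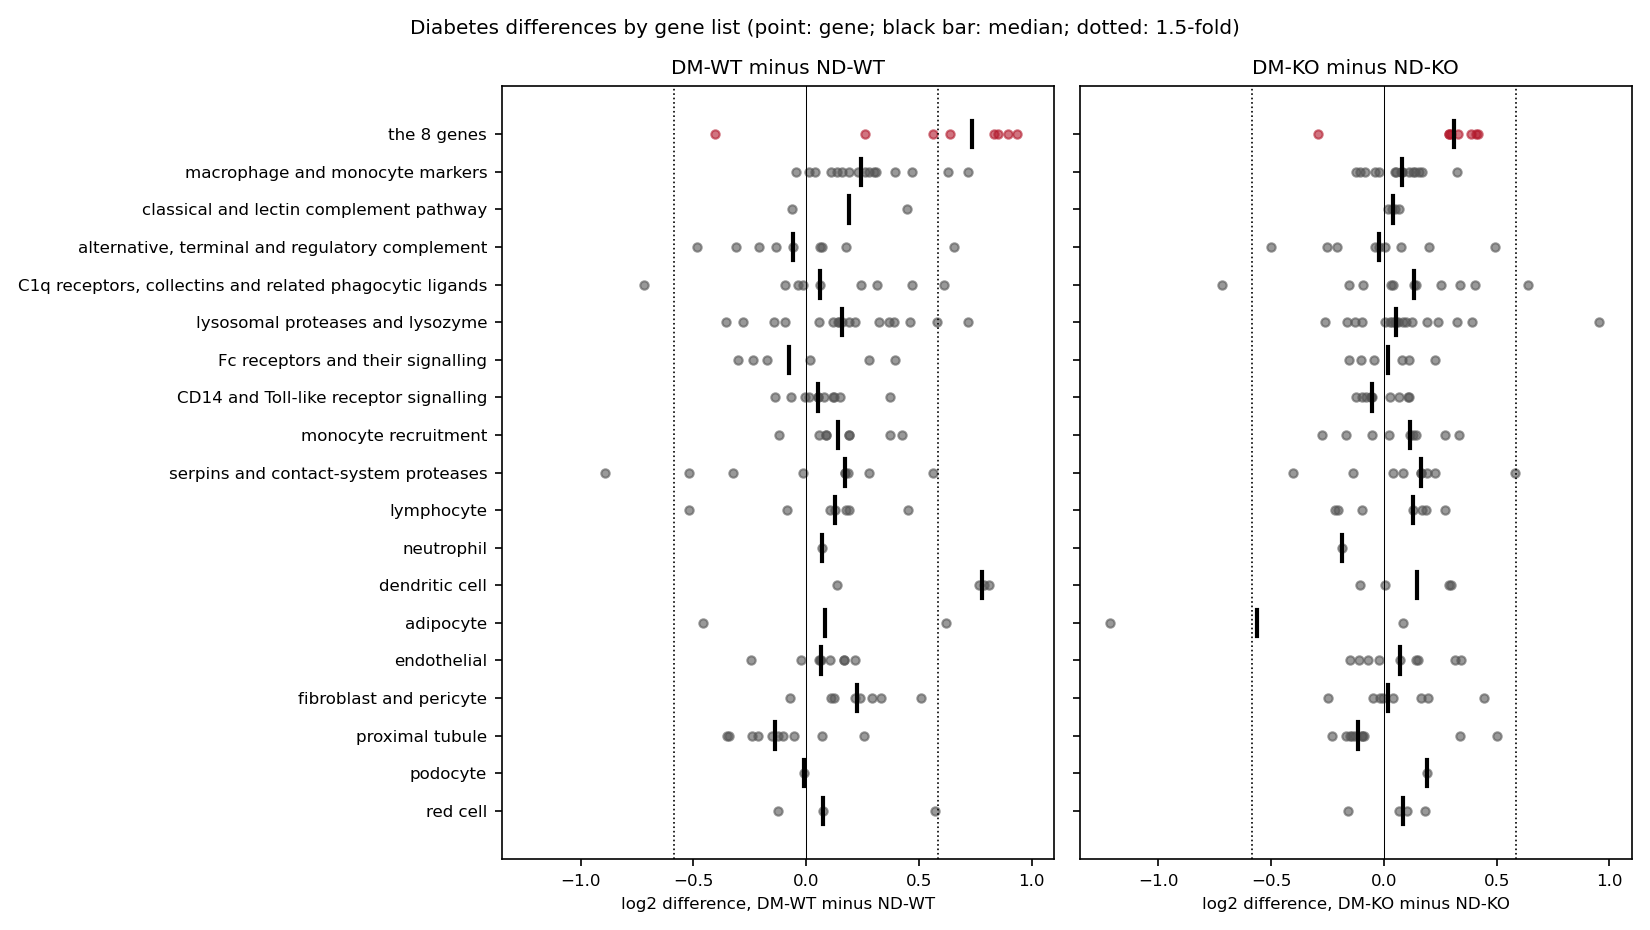
Log2 difference (horizontal axis) of the measured genes of each list between the diabetic and the nondiabetic array of the same genotype, 1 point per gene, with the list's median. For the macrophage list the median is 0.25 for DM-WT minus ND-WT and 0.08 for DM-KO minus ND-KO.

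Other complement genes differed in both directions. Of the classical and lectin pathway list, 1 of 2 measured genes was higher on DM-WT (median 0.19) and 4 of 4 were higher on DM-KO (median 0.04). C1ra, a C1r protease gene, was 0.45 log2 higher on the DM-WT than on the ND-WT array and 0.07 higher on the DM-KO than on the ND-KO array. C2, which C1s cleaves, was 0.06 lower on the DM-WT than on the ND-WT array and 0.05 higher on the DM-KO than on the ND-KO array, and 8 of the 13 listed genes are on the array. Of 9 measured genes of the alternative, terminal and regulatory list, 4 were higher on DM-WT, with a median of -0.06, and 4 were higher on DM-KO, with a median of -0.02. Clu, clusterin, was 0.66 higher on the DM-WT than on the ND-WT array and 0.49 higher on the DM-KO than on the ND-KO array. Cfb, factor B, was 0.31 lower on the DM-WT than on the ND-WT array and 0.00 apart between the KO arrays. C8g, a chain of the terminal complex, was 0.48 lower on DM-WT and 0.25 lower on DM-KO than on the nondiabetic array. Cd55, which speeds the decay of the C3 convertase, was 0.13 lower on DM-WT and 0.50 lower on DM-KO.

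The next list covers C1q receptors, C1q-domain proteins and genes for the uptake of dying cells, and holds no collectin. In it 5 of 9 measured genes were higher on the DM-WT than on the ND-WT array (median 0.06) and 8 of 11 were higher on the DM-KO than on the ND-KO array (median 0.13). Gas6, the bridging ligand of the receptors Tyro3, Axl and Mertk, was 0.61 higher on the DM-WT than on the ND-WT array and 0.64 higher on the DM-KO than on the ND-KO array. C1qtnf3, which shares the globular C1q domain, was 0.72 lower on the diabetic array in both genotypes. Pros1, protein S, was 0.47 higher on DM-WT and 0.25 higher on DM-KO than on the nondiabetic array. Unlike C1qa and C1qb, Gas6 and C1qtnf3 thus had differences of about the same size in both genotypes. Cd93, once proposed as a C1q receptor, was 0.31 higher on DM-WT and 0.14 higher on DM-KO.

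Of 17 lysosomal genes measured on both WT arrays 13 were higher on the DM-WT than on the ND-WT array (median 0.16), and 15 of 19 were higher on the DM-KO than on the ND-KO array (median 0.05). Ctsd, the aspartic protease cathepsin D, was 0.58 higher on DM-WT and 0.12 higher on DM-KO than on the nondiabetic array. Ctsc, which activates granule proteases, was 0.46 higher on DM-WT and 0.09 higher on DM-KO. Ctsk, the neighbour of Ctss, was not measured on both WT arrays, and it was 0.19 higher on the DM-KO than on the ND-KO array. Lamp2, a lysosomal membrane protein gene, was 0.95 higher on the DM-KO than on the ND-KO array and 0.80 lower on the ND-KO than on the ND-WT array. Its spot lies in the dim columns and was not measured on DM-WT.

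The Fc receptor list, beside Fcgr2b, had 3 of 6 genes higher on the DM-WT than on the ND-WT array and 3 of 6 higher on the DM-KO than on the ND-KO array, with medians of -0.08 and 0.02. Fcer1g, the signalling chain of activating Fc receptors, was 0.28 higher on DM-WT and 0.11 higher on DM-KO than on the nondiabetic array. Fcgrt, the neonatal Fc receptor that recycles IgG, was 0.24 lower on the DM-WT than on the ND-WT array and 0.23 higher on the DM-KO than on the ND-KO array. The Toll-like receptor list, beside Cd14, had 8 of 11 genes higher on DM-WT (median 0.05) and 4 of 10 higher on DM-KO (median -0.05). Tlr4 itself was not well above background on any array. Ly96 (MD-2), its partner, was 0.05 higher on DM-WT and 0.11 higher on DM-KO. Nfkbia, the inhibitor and target of NF-kappaB, was 0.37 higher on the DM-WT than on the ND-WT array and 0.10 lower on the DM-KO than on the ND-KO array.

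Among genes of monocyte recruitment, 7 of 8 were higher on the DM-WT than on the ND-WT array (median 0.14) and 6 of 9 were higher on the DM-KO than on the ND-KO array (median 0.11). Ccl2, the main monocyte chemokine gene, was 0.37 higher on DM-WT and 0.33 higher on DM-KO than on the nondiabetic array. Mif was 0.43 and 0.27 higher. Among serpins other than Serping1, Serpine2, a protease inhibitor of the matrix, was 0.56 higher on DM-WT and 0.58 higher on DM-KO, while Serpinf2, the plasmin inhibitor, was 0.89 and 0.40 lower. Serpina1b was 0.52 lower on the DM-WT than on the ND-WT array, 0.08 higher on the DM-KO than on the ND-KO array and 0.82 higher on the DM-KO than on the DM-WT array. The 6 serpin genes measured on both WT arrays had a median of -0.08, 3 of them higher on DM-WT. With 3 genes of the contact system that the list also holds, its median was 0.17. In the limma genotype fit, 0 measured members of these lists were called, where 0.0461% of all genes were.

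Markers of other cell types differed between some of the same arrays. All 10 proximal tubule genes on the array were measured on all 4 arrays. Of 4 dendritic cell list genes measured on both WT arrays, 4 were higher on the DM-WT than on the ND-WT array, with a median of 0.78, and the list includes MHC class II genes, which macrophages also express. Cd74, the invariant chain that cathepsin S trims, was 0.81 higher on the DM-WT than on the ND-WT array and was a poor spot on DM-KO. The summed signal of 5 probes of that list was 36.6 on DM-WT against 22.2 on ND-WT, and 29.8 on DM-KO against 25.8 on ND-KO, in the authors' scaled units. For lymphocytes it was 33.9 on DM-WT against 30.1 on ND-WT, and 30.8 on DM-KO against 29.5 on ND-KO. Gzma, at log2 levels of 9.54 to 9.82, was the brightest gene of that list on every array and so weighs most in the sum. Of the list's 18 probes, 10 were usable on DM-WT, 7 on ND-WT and 8 on each KO array. Among lymphocyte genes, 5 of 7 measured were higher on DM-WT, while Cd3e, Cd8a, Cd79b and Ms4a1 were not well above background on any array. Of B cell and plasma cell genes, Cd79a was 0.75 log2 higher, Ighm 0.90 lower and Jchain 0.61 lower on DM-KO than DM-WT. The proximal tubule sum was 366 on DM-WT against 462 on ND-WT, and 364 on DM-KO against 439 on ND-KO, with 2 of 10 genes higher on DM-WT. Fibroblast markers summed to 26.2 on DM-WT against 21.7 on ND-WT, and 24.6 on DM-KO against 22.4 on ND-KO. Endothelial markers, with 9 of 11 probes usable on each array, lay between 50.6 and 53.2 on all 4 arrays. Neutrophil markers lay between 1.70 and 2.16. Only 1 of their 8 probes was usable on each array, so that sum is no measure of neutrophils. Adipocyte markers summed to 54.4 on DM-WT against 60.0 on ND-WT, and 40.3 on DM-KO against 74.7 on ND-KO. Of the 5 adipocyte probes, 4 were usable on ND-KO and 2 on each other array. Fabp4 was 0.62 log2 higher on DM-WT than ND-WT, while Lpl was 1.22 lower on DM-KO than ND-KO. Adipoq and Cfd were well above background on ND-KO only. Their log2 levels there were 6.58 and 6.99, against at most 5.96 on the other arrays. Red cell markers, 4 probes, summed to 4.54 on DM-WT against 3.15 on ND-WT, and 3.70 on DM-KO against 3.84 on ND-KO, and Alas2, the haem synthesis gene of red cells, was 0.57 higher on DM-WT and 0.16 lower on DM-KO than on the nondiabetic array. The part of these cell types in the results was not tested.

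The genes whose profile over the 4 arrays was nearest to the mean of C1qa, C1qb and C1qc were ranked by Euclidean distance of log2 levels, each gene's own mean subtracted, among 5443 named genes measured on all 4 arrays. The C1q genes are part of that mean, and C1qb ranked 1, C1qa 4 and C1qc 15. Of the other genes described here, Serping1 ranked 8, Ctss 12 and Lyz2 20, while Cd14 ranked 557 and Fcgr2b 5298. Outside the 8, the nearest were D17H6S56E-5 at a distance of 0.0890, Tfrc, the transferrin receptor gene, at 0.0935, and the MHC class II genes H2-Eb1 at 0.0978 and H2-Aa at 0.101. H2-Aa had log2 levels of 10.00 on DM-WT against 9.23 on ND-WT, and of 9.73 on DM-KO against 9.44 on ND-KO. They were followed by the interferon-induced Ifit2 at 0.108, the immunoproteasome gene Psmb8 at 0.129 and the interferon-induced GTPase gene Igtp at 0.146, then by Krt18, Serpinb6b and Arg2 at 0.146, 0.152 and 0.159. The likeness rests on 4 arrays, which the genes share.

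**Figure D4:**
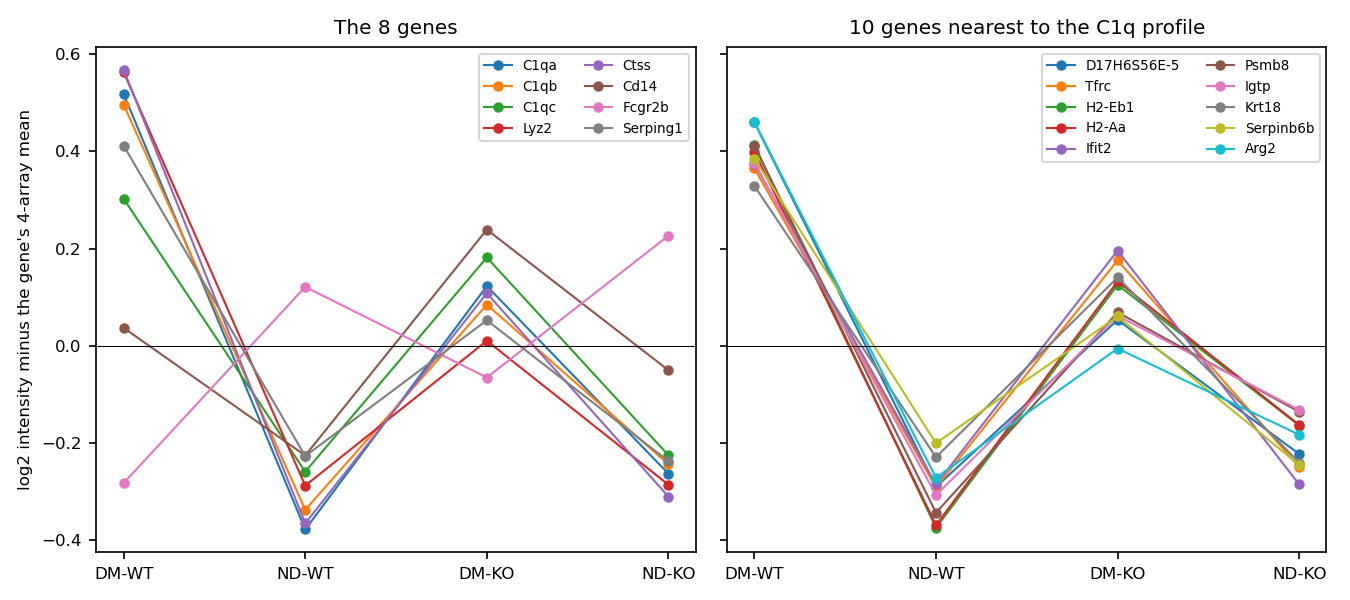
Log2 level minus each gene's own mean over the 4 arrays (vertical axis) on DM-WT, ND-WT, DM-KO and ND-KO, for the 8 genes and for the genes nearest to the mean C1q profile. The C1q chains, Serping1, Ctss and Lyz2 run together, Cd14 is highest on DM-KO and Fcgr2b lowest on DM-WT.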

How the data were processed

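Renal cortex RNA was hybridised to 4 one-colour CodeLink bioarrays, 1 per group, and spots were read with CodeLink Expression Analysis software 2.3.2, per the submitters' processing notes. Per the file headers, the deposited scanner tables hold spot mean intensity and background median intensity, unsubtracted and unscaled, beside a quality flag. The authors' deposited value table holds intensity too: each column equals spot mean minus background over a constant, within 0.1% for 100% of probes compared. The constant was 38.1 for DM-WT, 43.9 for ND-WT, 46.9 for DM-KO and 45.0 for ND-KO, and the column medians were 0.930, 0.926, 0.930 and 0.929. Genes are not centred in it, and how the constants were chosen stays unknown.

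From the scanner intensities, normexp correction (offset 50) over all spots and log2 were run with limma 3.58.1 under R 4.3.3. Poor spots were then set to missing and control spots left out. Quantile normalization in limma followed on the gene spots, and probes of a gene were averaged. Of 10032 gene probes, 9209 had 1 symbol (8923 from the platform annotation, 286 through an accession), 1 had several and 822 none. Pairwise differences used genes marked usable on both arrays. Genotype was tested with limma (lmFit, eBayes, two-sided) with diabetes as an additive term, over genes usable on 2 or more arrays, with Benjamini-Hochberg adjustment at 0.05. The fit was tested on simulated data. The number of arrays limits the precision.

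The 8 genes and all gene lists were chosen with earlier results of these data known. Named genes were the 8, up to 4 per pathway list and 3 per marker list by size of difference, with all at 1.5-fold or more, and the 10 nearest profiles. Not all that this allows are printed. Tyrobp, Aif1, Spi1, Cyba, Cd93, Ctsk, Ly96, Gzma, Adipoq and Cfd, and the genes named as not above background, were picked after their values were seen. Alternatives were the value table, median scaling, cyclic loess, an offset of 16, no background correction, edge spots left out, no filter, each probe on its own, an intensity trend and no diabetes term.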

Additional observations from a re-analysis of the deposited data

Results flagged for a closer look

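For 2 of the 8 genes the genotype difference had opposite directions in diabetic and nondiabetic cortex, by more than the spread of a spot in each. C1qa was at -0.40 log2 for DM-KO minus DM-WT and at 0.11 for ND-KO minus ND-WT. C1qb was at -0.41 for DM-KO minus DM-WT and at 0.09 for ND-KO minus ND-WT. The nondiabetic values were small, at 1.37 times the spread of a spot for C1qa and 1.12 times for C1qb. That spread is a median over bacterial probes, so values this near to it are not clearly beyond the spread of these spots. Of 6258 genes, 1059 lay higher than C1qa and 1332 higher than C1qb in that comparison. How many of all genes meet the same rule was not counted. The opposite directions were not tested, because each group has 1 array.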

How the results depend on the processing

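No paired analysis was possible because each group has 1 array. Leaving out an array removes a group, so this was not run. Of the summary values recomputed under the alternatives, 75 kept their direction and moved by less than the spread of a spot, or by no more than 1.5 times for a count, and 17 moved further. Some values in these counts and in those below could not move. All spots of the 8 genes were usable and each gene had 1 probe, so no filter and each probe on its own repeat their differences. No filter, an intensity trend and no diabetes term likewise leave each gene's genotype effect unchanged in this balanced design. No called value reversed and no genotype call of the 8 genes was gained or lost: 0 were called in all settings, and the lowest adjusted p by limma among them, 0.516 as reported, lay between 0.374 and 0.904. The median difference of the 8 genes for DM-WT minus ND-WT was 0.74, and 0.88 with the authors' value table, 0.59 with median scaling and 0.85 with an offset of 16. The value table put 8 genes at 1.5-fold in place of 5. For DM-KO minus ND-KO the median was 0.31, and 0.42 with the value table, which put 1 gene (C1qc) at 1.5-fold, and 0.41 with an offset of 16. For DM-KO minus DM-WT it was -0.38, and -0.26 with median scaling, and 1 gene (Lyz2) reached 1.5-fold with the value table and 1 with an offset of 16. The median difference between the diabetes responses, KO minus WT, was -0.43, and -0.30 with median scaling. For it 2 genes reached 1.5-fold with the value table and 2 with an offset of 16. Over all genes, limma called 3 for genotype, and 0 with the value table (513 at an unadjusted p under 0.05), 14 with median scaling, 1 with an offset of 16 and 12 with edge spots left out. Lyz2 for ND-KO minus ND-WT, 0.00 as reported, and the Cd14 difference between the diabetes responses, 0.03, took either sign. Among differences of single genes between arrays 249 moved by less than the spread of a spot and 47 by more, and all 72 genotype effects kept their direction and stayed above an adjusted p of 0.05. Cd14, the dimmest, had a genotype effect of 0.19 as reported, 0.43 with the value table and 0.30 with an offset of 16. C1qa and C1qb had genotype effects of -0.09 and -0.10 with median scaling, and the response difference of Serping1 was then -0.22. The cause of these shifts was not tested.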
